A study of Homo sapiens with 10 samples.

Results

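PARP9, PARP10, PARP12, PARP14 and DTX3L are the interferon-induced enzymes of ADP-ribosylation described here, chosen by name as 5 of the 62709 genes with values in the count table. All 5 had reads in every library and all 5 were among the 15832 genes that passed a filter on low counts and were tested. RNA was sequenced from 10 bulk libraries of the H441 line, established from a human lung adenocarcinoma, epithelial in type and used as a model of the distal airway. There were 3 libraries of H441 cells in which CRISPR-Cas9 had been used to disrupt TET1 (KO) and 2 libraries of cells transiently transfected with a plasmid for full-length human TET1 (OE). A further 2 libraries, titled Lipo, carried the same label as the 3 wild-type libraries (WT), namely wild type without treatment, and the labels do not explain the title; here Lipo served as the control of OE, and WT as that of KO and of Lipo. The labels give neither the number of knockout clones nor the number of days after transfection nor an empty plasmid, and do not state that replicates were grown as separate cultures. The p-values therefore measure the spread between these libraries, which may be technical. With no empty plasmid named, the effects of plasmid delivery and of TET1 itself cannot be told apart in OE over Lipo.

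ADP-ribosylation is the transfer of ADP-ribose from NAD+ to proteins or nucleic acids by the PARP family. PARP10, PARP12 and PARP14 attach single ADP-ribose units, whereas PARP9 works in a complex with DTX3L, a ubiquitin ligase of the Deltex family. Interferons raise transcription of these genes through JAK kinases and STAT factors, which act at the interferon-stimulated response element (ISRE) and at the gamma-activated site (GAS), and several viruses carry a macrodomain that removes ADP-ribose from proteins. TET1, the gene altered in the study, encodes a dioxygenase that oxidises 5-methylcytosine in DNA.

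The genes lie on 3 chromosomes (GENCODE release 29, GRCh38, whole gene bodies with exons, introns and UTRs). PARP9 (ENSG00000138496, chr3:122527924-122564577, minus strand) and DTX3L (ENSG00000163840, chr3:122564238-122575203, plus strand) are divergent neighbours whose ends overlap, and PARP14 (ENSG00000173193, chr3:122680618-122730840, plus strand) follows them as the next tested gene. PARP12 (ENSG00000059378, minus strand) is at chr7:140023744-140063721. PARP9 and DTX3L share 217 exon bases on opposite strands, or 2.43% of the exon bases of PARP9 and 3.70% of those of DTX3L. How the authors' counting treated strand is not given in the sources used here, so reads from that stretch cannot be assigned with certainty.

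Of the 5 genes, 4 matched a RefSeq promoter window (PARP9, DTX3L, PARP14 and PARP12), and PARP10 is not shown. The windows are printed for the ISRE core, the element through which the family is known to answer interferon. The windows are RefSeq sequence of GRCh38.p14, 300 bases long, from 250 bases before to 50 after the annotated start, each 5′ to 3′ on the strand of its gene. The motifs searched on both strands were GAAA, any 2 bases and GAAA again for the ISRE core, and TTCNNNGAA for GAS, and capitals mark their matches.
PARP9, chr3:122564251-122564550, minus strand: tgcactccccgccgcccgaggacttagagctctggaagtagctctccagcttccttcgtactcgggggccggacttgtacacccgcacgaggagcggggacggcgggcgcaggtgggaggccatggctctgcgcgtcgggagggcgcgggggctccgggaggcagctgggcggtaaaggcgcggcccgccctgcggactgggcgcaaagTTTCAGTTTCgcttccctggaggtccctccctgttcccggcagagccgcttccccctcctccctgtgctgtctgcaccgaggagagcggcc
DTX3L, chr3:122564088-122564387, plus strand: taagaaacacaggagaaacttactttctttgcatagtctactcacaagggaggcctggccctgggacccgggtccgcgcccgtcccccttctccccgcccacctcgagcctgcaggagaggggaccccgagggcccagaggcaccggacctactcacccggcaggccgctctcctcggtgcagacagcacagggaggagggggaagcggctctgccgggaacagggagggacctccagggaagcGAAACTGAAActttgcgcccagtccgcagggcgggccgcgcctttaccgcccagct
PARP14, chr3:122680589-122680888, plus strand: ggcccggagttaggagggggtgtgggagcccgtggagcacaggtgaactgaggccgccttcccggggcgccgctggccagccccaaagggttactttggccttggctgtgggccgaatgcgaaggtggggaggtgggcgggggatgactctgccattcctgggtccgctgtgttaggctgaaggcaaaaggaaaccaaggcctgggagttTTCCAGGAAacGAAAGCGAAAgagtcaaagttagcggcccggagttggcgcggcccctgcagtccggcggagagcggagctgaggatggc
PARP12, chr7:140062902-140063201, minus strand: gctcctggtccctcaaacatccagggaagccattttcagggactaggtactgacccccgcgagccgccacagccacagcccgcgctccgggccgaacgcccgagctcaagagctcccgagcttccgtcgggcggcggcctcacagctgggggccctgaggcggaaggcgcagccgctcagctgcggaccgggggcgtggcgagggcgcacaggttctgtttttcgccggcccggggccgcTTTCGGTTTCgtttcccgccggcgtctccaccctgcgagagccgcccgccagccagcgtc

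The capitals in the PARP9 and DTX3L windows are the same 10 bases (chr3:122564332-122564341), read TTTCAGTTTC on the PARP9 strand and GAAACTGAAA on the DTX3L strand. Those windows share 137 bases, and the shared match begins 41 bases before the PARP9 start and 6 bases before the DTX3L start. In the PARP14 window the ISRE core GAAAGCGAAA begins 29 bases before the start and a GAS match, TTCCAGGAA, begins 40 bases before it, so the motifs stand side by side without overlap. In the PARP12 window TTTCGGTTTC begins 10 bases before the start. PARP9 has another RefSeq start, whose window (chr3:122564735-122565034) held neither motif.

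An ISRE core was thus present for 4 of 4 genes with a window, and in 4 of their 5 windows. Among all genes with a RefSeq window 1195 of 27305 (4.38%) had it, in 1255 of 35116 windows (3.57%), and among 32 canonical interferon-stimulated genes with a window 21 did (65.6%). None of 11 other PARP family genes with a window had the motif. GAS letters were in 7.66% of all windows and for 9.38% of all genes with a window. They were present for 1 of the 4 genes here (PARP14), for 3 of the 11 other PARP family genes and for 8 of the 32 canonical interferon-stimulated genes. The windows of PARP9, DTX3L, PARP14 and PARP12 held 29, 20, 19 and 35 CpG dinucleotides in that order and the other PARP9 window held 6. The median was 14 over all windows, 27.5 over those of other PARP family genes and 8 over those of canonical interferon-stimulated genes. A match describes letters in a window and does not show that a factor binds there, and DNA methylation was not measured in these files.

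Total counts per library ranged from 20994462 to 25981097. Mitochondrial genes took 4.74% and 4.89% of the counts in OE, 8.04% and 8.72% in Lipo, 5.44% to 7.25% in KO and 5.47% to 6.15% in WT, so the Lipo libraries were the highest of the 10. TET1 had 4, 0 and 8 reads in KO libraries, against 2, 7 and 0 in WT libraries, so its RNA does not check the knockout label; it had 17883 and 20805 reads in OE libraries, against 0 and 1 in Lipo libraries. All 8 epithelial markers (such as EPCAM, KRT8 and NKX2-1) had reads in every library, and 6 immune markers summed to at most 1.25 CPM (read counts scaled to a common library size), with HLA-DRA at 0 throughout. The summed epithelial level was 7238 to 9807 CPM in KO, 10255 to 10409 CPM in OE, 9550 to 10046 CPM in Lipo and 9275 to 10430 CPM in WT. Single markers moved more than the sum. SFTPB averaged 49.5 CPM in KO and 195 CPM in WT, and 29.7 CPM in OE and 75.9 CPM in Lipo. CDH1 averaged 686 CPM in KO and 1151 CPM in WT. In the test described below 2 of the 8 fell in KO over WT (SFTPB and CDH1), where 7.45% of the genes tested fell. In OE over Lipo 1 fell (SFTPB), where 5.53% did, and none of the 8 rose in either comparison. Summed CPM of 6 fibroblast and endothelial markers, nearly all of it COL1A1 and LUM, was 71.6 to 78.3 in KO, 344 to 353 in OE, 170 to 184 in Lipo and 177 to 290 in WT, with DCN at 0 in every library. The part of these shifts in the results below was not tested.

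In OE libraries all 5 genes rose above Lipo, by 4.35-fold to 6.14-fold, where 6.79% of the genes tested rose. On the log2 scale the rises ran from 2.12 for PARP14 to 2.62 for PARP9, and their 95% intervals overlapped throughout. In KO libraries PARP10 and PARP12 fell relative to WT, where 7.45% of the genes tested fell, and PARP9, DTX3L and PARP14 did not pass the test. Levels are CPM after TMM normalisation, and fold changes come from an edgeR quasi-likelihood fit over all 10 libraries with p-values adjusted by the Benjamini-Hochberg method over all genes tested (threshold 0.05). In bulk RNA a change in the share of cells that express a gene and a change in RNA per cell cannot be told apart.

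**Figure D1:**
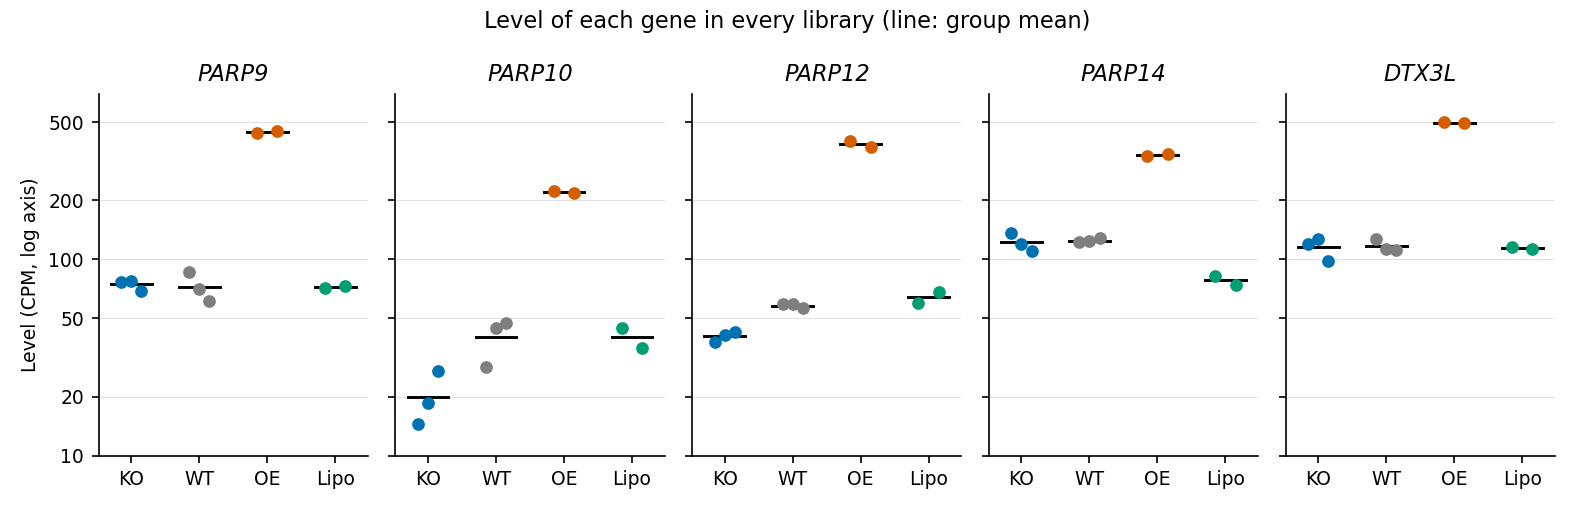
Level of each gene (CPM, log axis) in every library, with a point per library and a line at the group mean. The 2 OE libraries lie above the other 8 for each gene, and the KO libraries lie below the WT libraries for PARP10 and PARP12. Over the genes tested, OE lay wholly above Lipo for 32.8% and KO wholly below WT for 14.5%. The share with OE above all of the other 8 was not counted.

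PARP9, the partner of DTX3L in the complex, measured 439 and 449 CPM in OE libraries, against 71.5 and 73.1 CPM in Lipo libraries. It measured 77.1, 77.4 and 68.9 CPM in KO libraries, against 85.9, 70.3 and 61.0 CPM in WT libraries. The OE libraries stood far above all others, while the KO range lay inside the WT range. These values rest on 8895 and 9760 reads in OE and on 1717 and 1603 reads in Lipo. PARP9 rose 6.14-fold in OE over Lipo (log2 2.62, SE 0.17, adjusted p = 5.06e-08), the largest rise among the 5 genes. In KO over WT its log2 change was 0.04 (95% interval -0.23 to 0.31, adjusted p = 0.885).

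DTX3L, the ubiquitin ligase whose promoter window shares bases with that of a PARP9 start, measured 502 and 493 CPM in OE libraries, against 115 and 112 CPM in Lipo libraries. In KO libraries it measured 120.4, 128 and 98.3 CPM, against 127, 113 and 112 CPM in WT libraries. OE again stood apart from every other library, and KO and WT overlapped. The rise in OE was 4.37-fold (log2 2.13, SE 0.15, adjusted p = 1.68e-07). The KO change was -0.03 on the log2 scale (95% interval -0.28 to 0.23, adjusted p = 0.92).

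The balance between DTX3L and PARP9, which have neighbouring starts, was set out by library. Per kilobase of merged exon, the ratio of DTX3L to PARP9 was 1.74 and 1.67 in OE libraries, against 2.46 and 2.34 in Lipo libraries. It was 2.38, 2.51 and 2.17 in KO libraries, against 2.26, 2.46 and 2.80 in WT libraries. Both OE libraries lay below the 8 others, which spanned 2.17 to 2.80. The ratio of PARP14 to PARP9 was also lowest in OE libraries, 0.651 and 0.655 against 0.866 to 1.78 in the 8 others. For PARP12 and PARP10 over PARP9 the OE values lay inside the range of the others. The ratios were picked after the values had been seen and are descriptions. An exact two-sided permutation test of 2 against 2 libraries cannot go below 0.333.

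PARP14, a large mono-ADP-ribosyltransferase with macrodomains that is known as a cofactor of STAT6, measured 335 and 345 CPM in OE libraries, against 82.2 and 74.3 CPM in Lipo libraries. In KO libraries it measured 137, 119 and 110.0 CPM, against 123, 123 and 128 CPM in WT libraries. Both OE libraries were high, both Lipo libraries were below all KO and WT libraries, and KO spanned the WT range. The rise in OE over Lipo was 4.35-fold (log2 2.12, SE 0.14, adjusted p = 1.04e-07). Against WT in place of Lipo the rise of PARP14 was 2.73-fold (log2 1.45, SE 0.12, adjusted p = 9.41e-07), so its size depends on the control. The other 4 genes kept nearly the same rise over WT, 6.13-fold for PARP9, 6.68-fold for PARP12, 5.47-fold for PARP10 and 4.23-fold for DTX3L. Its KO change was -0.03 on the log2 scale (95% interval -0.27 to 0.21, adjusted p = 0.905).

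PARP12, a zinc-finger mono-ADP-ribosyltransferase, measured 403 and 374 CPM in OE libraries, against 60.0 and 68.4 CPM in Lipo libraries. It measured 37.8, 41.4 and 42.4 CPM in KO libraries, against 58.9, 58.9 and 56.8 CPM in WT libraries. Neither pair of groups overlapped, and the spread within KO and within WT was small beside the gap between them. PARP12 rose 6.06-fold in OE over Lipo (log2 2.60, SE 0.14, adjusted p = 8.58e-09). It fell 1.44-fold in KO (log2 -0.52, SE 0.11, 95% interval -0.76 to -0.29, adjusted p = 0.00616).

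PARP10 (ENSG00000178685, chr8:143977153-144012772, minus strand) is a mono-ADP-ribosyltransferase that also binds ubiquitin, and on the opposite strand it shares 324 exon bases with GRINA and 197 with SPATC1. It measured 223 and 217 CPM in OE libraries, against 44.9 and 35.4 CPM in Lipo libraries. In KO libraries it measured 14.5, 18.5 and 27.0 CPM, against 28.4, 44.8 and 47.2 CPM in WT libraries. OE stood far above Lipo, and KO below WT, although KO 3 and WT 1 nearly met. The lowest value, in KO 1, rests on 328 reads. PARP10 rose 5.48-fold in OE over Lipo (log2 2.45, SE 0.27, adjusted p = 2.15e-05). It fell 2.01-fold in KO (log2 -1.01, SE 0.22, 95% interval -1.47 to -0.54, adjusted p = 0.00675). The KO libraries with the least PARP10, KO 1 and KO 2, also had the lowest summed epithelial marker levels, 7238 and 7632 CPM. That sum is mostly KRT8, KRT18 and KRT19. CDH1 went the other way, with 736, 721 and 602 CPM in KO 1, KO 2 and KO 3. EPCAM did not follow the order either (650, 561 and 641 CPM), while the remaining markers were lower in KO 1 and KO 2 than in KO 3. The part of these marker differences in the fall of PARP10 was not tested.

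**Figure D2:**
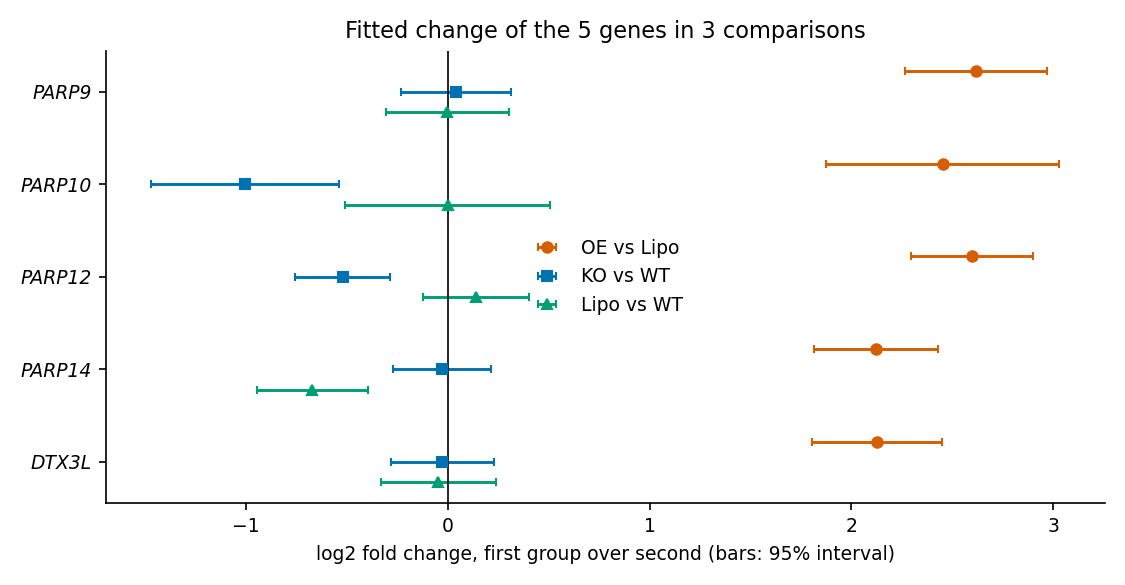
Fitted log2 fold change of each gene, first group over second, with its 95% interval, for OE over Lipo, KO over WT and Lipo over WT. In OE over Lipo the values run from 2.12 to 2.62, in KO over WT only PARP10 (-1.01) and PARP12 (-0.52) passed the test, and in Lipo over WT only PARP14 (-0.67) did.

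Read against the whole transcriptome, 5 of 5 genes rose in OE, where 6.79% of the genes tested rose, and none fell, where 5.53% did. In KO 2 of 5 fell, where 7.45% of the genes tested fell, and none rose, where 5.13% did. Groups that did not overlap were common with so few libraries: every OE library lay above every Lipo library for 32.8% of the genes tested, and every KO library lay below every WT library for 14.5%. By size of log2 change in OE, the 5 genes ranked between the 315th place (PARP9) and the 458th (PARP14) of 15832 from the top. The median log2 change of the 5 was 2.45 in OE and -0.03 in KO, beside medians of -0.01 and 0.00 over all genes tested.

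The difference between the KO change and the OE change, which uses separate control libraries, was tested in the same fit. It passed for 5 of 5 genes, all lower in KO than in OE, where 9.47% of the genes tested were lower and 7.16% higher. PARP10 had the largest difference, -3.46 on the log2 scale (SE 0.35, adjusted p = 6.63e-06), followed by PARP12 with -3.12 (SE 0.18, adjusted p = 2.36e-08). The values for PARP9, DTX3L and PARP14 differed by -2.58, -2.15 and -2.15, with adjusted p = 6.55e-07, 1.84e-06 and 1.09e-06 in that order. For PARP9, DTX3L and PARP14 the OE change made up nearly all of the difference, since their KO changes lay between -0.03 and 0.04.

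Lipo and WT carry the same label and were compared as libraries of nominally untreated cells. PARP14 fell 1.59-fold in Lipo relative to WT (log2 -0.67, SE 0.13, adjusted p = 0.0104), where 2.38% of the genes tested fell and 1.32% rose. The mitochondrial share was 8.04% and 8.72% in Lipo, against 5.47% to 6.15% in WT, and its part in this fall and in the OE changes was not tested. The PARP14 call rested on both Lipo libraries: without Lipo 2 the change was -0.75 with adjusted p = 0.0923, and without Lipo 3 it was -0.60 with adjusted p = 0.23. The other 4 genes did not pass, with log2 changes of 0.14 (95% interval -0.12 to 0.40) for PARP12, -0.05 (-0.33 to 0.24) for DTX3L, -0.00 (-0.31 to 0.30) for PARP9 and -0.00 (-0.51 to 0.51) for PARP10. Both Lipo libraries lay above all WT libraries for PARP12 and below them for PARP14; over the genes tested 21.3% lay above and 22.2% below in this way.

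Per kilobase of merged exon, the order of the levels changed between groups. In OE libraries DTX3L led with 84.7 ± 1.06 CPM per kilobase, followed by PARP12 with 61.8 ± 3.25, PARP9 with 49.6 ± 0.82, PARP10 with 36.4 ± 0.63 and PARP14 with 32.4 ± 0.65 (SD, n = 2), and no neighbours in that order overlapped. In Lipo libraries DTX3L stood at 19.4 ± 0.35, PARP12 at 10.2 ± 0.94, PARP9 at 8.09 ± 0.13, PARP14 at 7.45 ± 0.53 and PARP10 at 6.65 ± 1.11 (SD, n = 2), and only PARP14 and PARP10 overlapped. PARP14, the lowest in OE, was thus above PARP10 by its mean in Lipo.

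In KO libraries the order was DTX3L (19.7 ± 2.60 CPM per kilobase), PARP14 (11.6 ± 1.30), PARP9 (8.33 ± 0.54), PARP12 (6.45 ± 0.39) and PARP10 (3.31 ± 1.06; SD, n = 3), with no overlap between neighbours. In WT libraries it was DTX3L (20.1 ± 1.45), PARP14 (11.9 ± 0.26), PARP12 (9.26 ± 0.20), PARP9 (8.10 ± 1.41) and PARP10 (6.65 ± 1.69; SD, n = 3). There PARP12 overlapped PARP9, and PARP9 overlapped PARP10. The ratio of PARP12 to PARP9 averaged 0.777 ± 0.0908 in KO and 1.16 ± 0.176 in WT (SD, n = 3 each). It was 0.696, 0.760 and 0.875 in KO libraries, against 0.975, 1.19 and 1.32 in WT libraries, so PARP12 was below PARP9 in every KO library and in WT 1. This ratio too was picked after the values had been seen, and its exact two-sided permutation p of 0.1 is the smallest that 3 against 3 libraries can give. Merged exons count every annotated transcript, so these levels understate those of a shorter transcript.

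**Figure D3:**
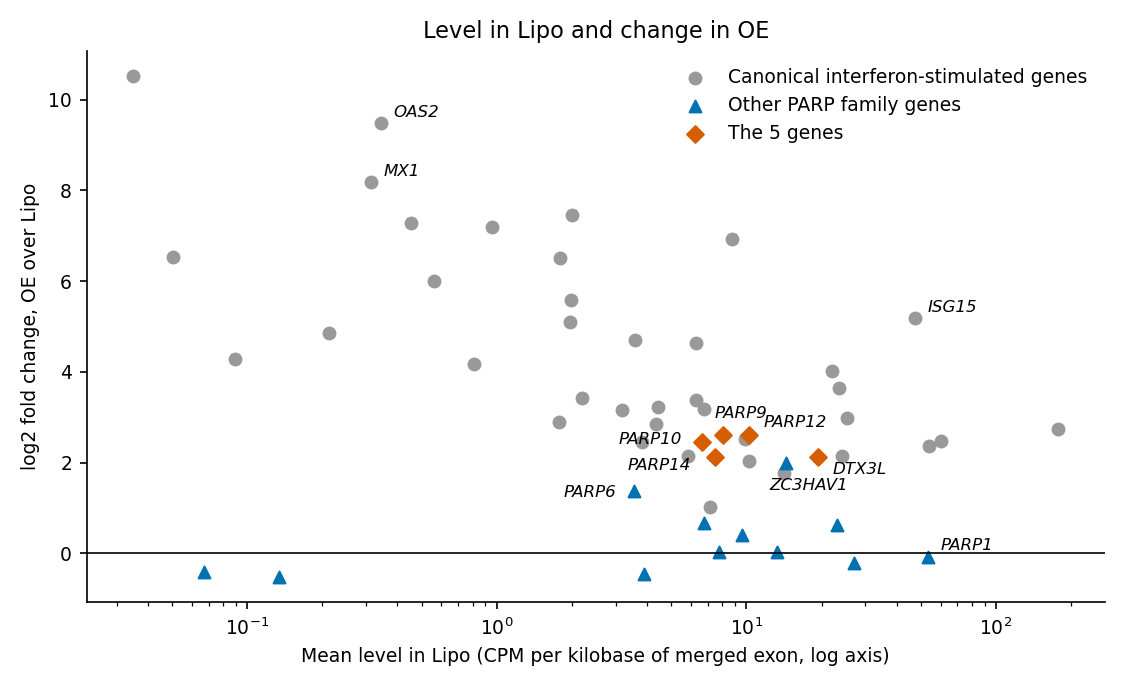
Mean level in Lipo (CPM per kilobase of merged exon, log axis) against the log2 fold change in OE over Lipo, for the 5 genes, 38 canonical interferon-stimulated genes and other PARP family genes. IFI27 had no reads in Lipo and is not drawn; the 5 genes sit between 6.65 and 19.4 CPM per kilobase with changes of 2.12 to 2.62, to the right of and below most interferon-stimulated genes.

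Of the 39 canonical interferon-stimulated genes on the list, 39 rose in OE over Lipo, with a median log2 change of 4.02. The 5 genes changed less than most of them: 9 of the 39 had a smaller log2 change than PARP9 or PARP12, 6 than PARP10, and 3 than DTX3L or PARP14. They also started higher. In Lipo 31 of the 39 had a lower level per kilobase than DTX3L, 29 than PARP12, 27 than PARP9 or PARP14 and 25 than PARP10. In OE the median of the 39 was 66.0 CPM per kilobase, against 3.81 in Lipo; DTX3L was above that OE median and the other 4 genes were below it. In KO over WT 4 of the 39 rose and 5 fell, with a median log2 change of 0.02; the number that fell was 1 without WT 2, 2 without WT 3, OE 1 or OE 2, 3 without either Lipo library and 8 without WT 1.

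Genes that carry the interferon signal to these promoters were followed in a list of 16, of which 14 were tested. In OE over Lipo 8 of the 14 rose and none fell, with a median log2 change of 0.81. STAT2, a subunit of the factor that binds the ISRE, rose by 1.39 on the log2 scale (adjusted p = 6.56e-05), and IRF1, a transcription factor that binds the ISRE, by 2.39 (adjusted p = 9.07e-07). USP18, an inhibitor of the receptor, rose by 3.48 (adjusted p = 1.05e-08). IRF9, the DNA-binding subunit of the same factor as STAT2, is listed at 0 reads in every library and was not among the genes tested. Whether this value reflects absent RNA or the way reads were counted was not tested. The count of 8 was 5 without OE 1, Lipo 2 or Lipo 3 in turn. In KO over WT 1 of the 14 fell: IFNLR1, a chain of the lambda interferon receptor, had 0 reads in KO libraries and 755 in WT libraries, at least 249-fold lower by a floor of 3 reads over the group.

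Other genes of the PARP family were counted in the same comparisons. Of 13 others listed, 12 were tested; 4 rose in OE over Lipo and none fell, with a median log2 change of 0.03. ZC3HAV1, an antiviral RNA-binding member without catalytic activity, averaged 471 ± 3.31 CPM in OE and 118 ± 3.83 CPM in Lipo (SD, n = 2 each; log2 1.99, adjusted p = 1.26e-07). PARP6 averaged 71.0 ± 0.0410 CPM in OE and 27.3 ± 0.466 CPM in Lipo (SD, n = 2 each; log2 1.38, adjusted p = 1.82e-05). PARP8 and TIPARP rose by 0.66 and 0.63 on the log2 scale (adjusted p = 0.0229 and 0.0382), and neither call held when any OE or Lipo library was left out. PARP1, the main enzyme of the response to DNA damage, had a log2 change of -0.07 (95% interval -0.37 to 0.22).

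In KO over WT none of the 12 rose and 2 fell, with a median log2 change of -0.21. TIPARP, a mono-ADP-ribosyltransferase known as a target of the aryl hydrocarbon receptor, averaged 86.3 ± 16.9 CPM in KO and 151 ± 25.5 CPM in WT (SD, n = 3 each; log2 -0.81, adjusted p = 0.00281). PARP11 had 0 reads in KO libraries and 11 in WT libraries, at least 3.63-fold lower by the same floor, and its call did not hold when any library was left out. TIPARP was the only one of the 12 to pass in both comparisons, higher in OE and lower in KO. Its OE call did not hold when any OE or Lipo library was left out. It averaged 180 CPM in OE and 116 CPM in Lipo, beside 151 CPM in WT.

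**Figure D4:**
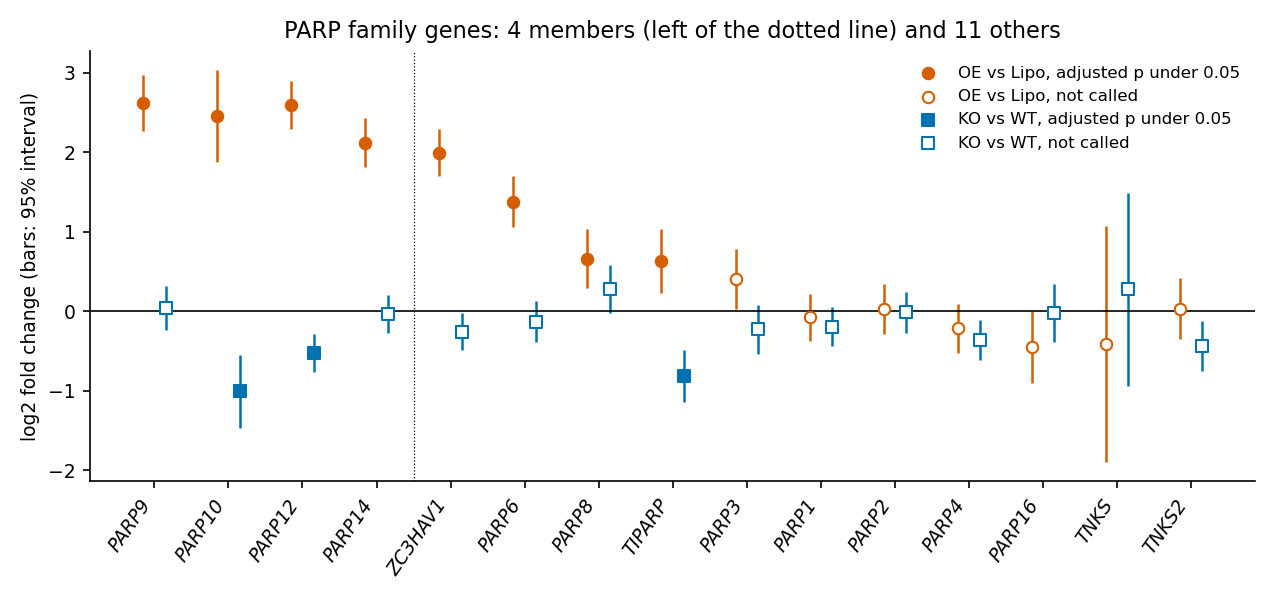
Log2 fold change of PARP family genes in OE over Lipo and in KO over WT with 95% intervals; filled symbols have an adjusted p under 0.05. PARP11 and PARP15, which had few reads, are not drawn; ZC3HAV1 (1.99) comes closest to PARP14 (2.12) in OE, and TIPARP (-0.81) lies between PARP10 (-1.01) and PARP12 (-0.52) in KO.

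The make-up of PARP family RNA shifted with these genes. Summed over 16 family genes per kilobase, PARP9, PARP10, PARP12 and PARP14 took 44.6 ± 0.904% of the total in OE and 16.6 ± 0.056% in Lipo (SD, n = 2 each). They took 17.3 ± 1.47% in KO and 17.1 ± 0.199% in WT (SD, n = 3 each). PARP1 took 12.5 ± 0.691% in OE and 27.3 ± 0.104% in Lipo. The family sum itself was 404 ± 2.79 CPM per kilobase in OE and 195 ± 2.81 in Lipo (SD, n = 2 each). In KO it was 173 ± 15.4 CPM per kilobase, against 210.0 ± 2.17 in WT, and the sum of the 4 genes was 29.7 ± 0.334 in KO and 35.9 ± 0.511 in WT (SD, n = 3 each), so both mean sums were lower in KO while the mean share was nearly equal; these sums were not tested.

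Genes for other steps of ADP-ribose metabolism were counted in the same way. Of 3 tested relatives of DTX3L in the Deltex family none passed in OE, and DTX4 fell in KO (29.6 ± 5.29 CPM in KO and 48.4 ± 7.25 CPM in WT, SD, n = 3 each; log2 -0.71, adjusted p = 0.00719). Of 7 tested genes linked to the removal or breakdown of ADP-ribose, none rose and 1 fell in OE. NUDT16 had a log2 change of -0.49 (adjusted p = 0.0426), a call lost in 10 alternatives, among them leaving out any OE or Lipo library, WT 2 or WT 3. None of these 7 passed in KO. Of 7 tested genes for the metabolism of NAD, the donor of ADP-ribose, none passed in OE. In KO 2 of them fell: NMNAT2 by 1.08 on the log2 scale (adjusted p = 0.00012) and NAMPT, the rate-limiting enzyme of NAD salvage, by 0.62 (adjusted p = 0.00251).

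The change around the 5 genes on the chromosome was followed through the 3 nearest tested genes on each side, 18 in all outside the 5. In OE over Lipo 1 of the 18 rose (GRINA, next to PARP10) and 1 fell (LINC02035, log2 -1.66, adjusted p = 0.0393), where 6.79% of the genes tested rose and 5.53% fell. Of the genes next to the chromosome 3 group neither passed in OE, KPNA1 just before PARP9 with a log2 change of 0.22 (adjusted p = 0.406) and HSPBAP1 just after PARP14 with 0.90 (adjusted p = 0.0556); LINC02035 is the third after PARP14. In KO over WT none of the 18 rose and 6 fell, where 5.13% and 7.45% of the genes tested did. Both genes that fell in KO had neighbours that fell: beside PARP10 these were PLEC, with a mean of 338 CPM in KO and 965 CPM in WT (log2 -1.52, adjusted p = 0.000631), and GRINA, with 46.3 CPM in KO and 91.5 CPM in WT (log2 -0.98, adjusted p = 0.00166). GRINA, whose exons overlap those of PARP10, also rose in OE (219 CPM in OE and 119 CPM in Lipo, log2 0.88, adjusted p = 0.013). Beside PARP12 the genes that fell were HIPK2 (log2 -0.82, adjusted p = 0.0064), KDM7A (log2 -0.67, adjusted p = 0.0253) and SLC37A3 (log2 -0.40, adjusted p = 0.0304), and beside PARP9 KPNA1 fell by 0.44 (adjusted p = 0.0311).

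**Figure D5:**
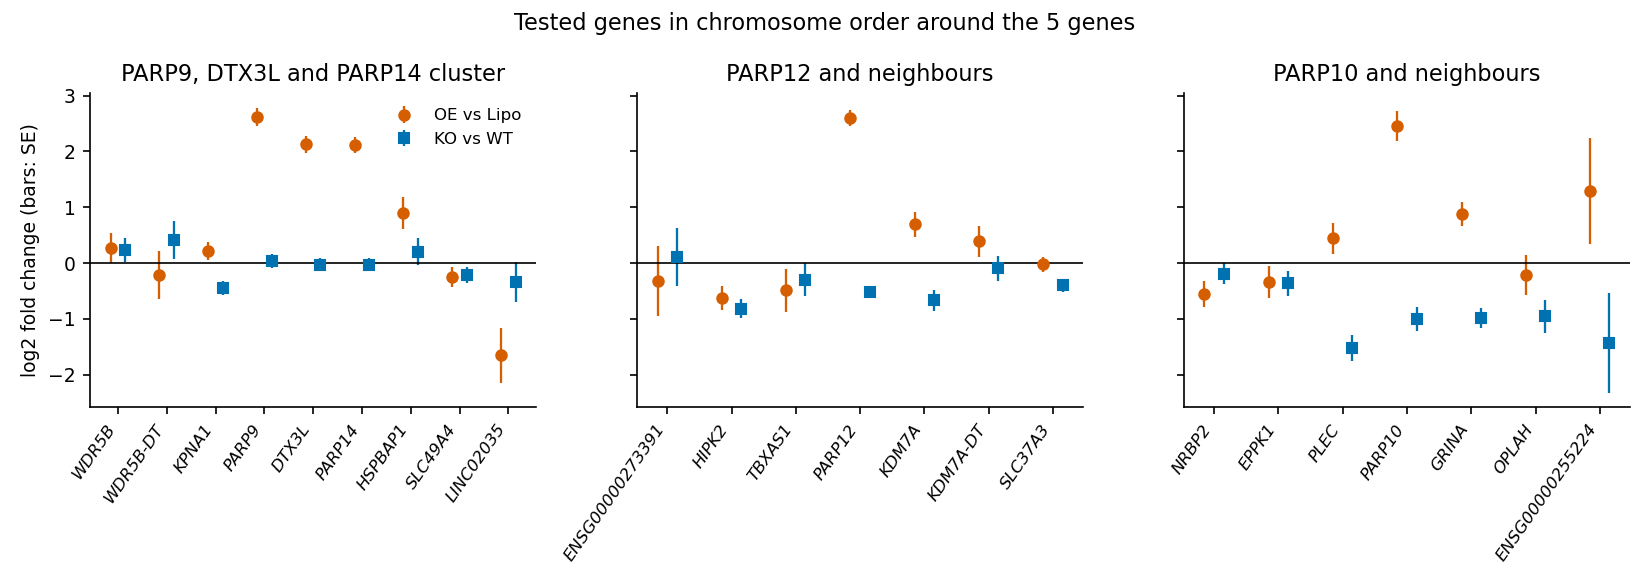
Log2 fold change (bars are SE) of the tested genes in chromosome order around the 5 genes, in OE over Lipo and in KO over WT. In OE the 5 genes stand above all their neighbours drawn; in KO PARP10 (-1.01) lies between PLEC (-1.52) and GRINA (-0.98).

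Likeness to other genes was measured as the root mean square difference of centred log2 CPM over the 10 libraries, where a small value means a similar pattern. The nearest gene outside the 5 was SP110 for PARP9 (0.166), SOD2 for DTX3L (0.0787), ZNF697 for PARP14 (0.149), RELB for PARP12 (0.128) and PLAUR for PARP10 (0.213). The next nearest was IRF1 for PARP9 (0.176), ZC3HAV1 for DTX3L (0.109), SP100 for PARP14 (0.166) and TYMP for PARP10 (0.236). Within the 5, PARP9 and DTX3L were the closest pair (0.221), and PARP10 and PARP14 were the farthest apart (0.840). PARP10 and PARP12, the genes that fell in KO, stood 0.342 apart. The measure takes in all 10 libraries, OE included, and carries no test.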

How the data were processed

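RNA was measured in 10 H441 libraries. The authors deposited raw counts of reads per gene, whole numbers without normalisation; per the submitters' processing notes, the tools were FastQC, edgeR, featureCounts and HISAT2 2.1.0 and the build GRCh38, with no role given. A stranded total RNA kit was used, per the labels' protocols. Of 62710 entries, 1 (ANK2) had no values, and 2 columns that matched no sample were not used. Groups came from the labels.

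The main test was edgeR 4.0.16 (R 4.3.3): filterByExpr on the 4 groups kept 15832 genes, TMM gave the scaling factors, and glmQLFit (robust) took in all 10 libraries with 6 residual degrees of freedom. Tests were two-sided, with Benjamini-Hochberg adjustment across the tested genes in each of the 4 comparisons. SE is the log2 change divided by the square root of F, and intervals are 95%. Fold changes against groups at 0 reads use a floor of 3 reads over the group and cover counting error only. Replicate pairs differed beyond counting noise, and unequally so. The mean chi-square per gene against counting noise was 4.83 in OE, 6.17 in Lipo, 39.9 to 65.8 in KO and 6.38 to 46.9 in WT. The fit shares its estimate of spread over all groups, so p-values for OE over Lipo also rest on the spread in KO and WT.

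The text names the 5 genes, up to 4 members of each list by smallest p, the 3 nearest tested genes on each side and the genes of most similar pattern; PARP1 was added for its known role, and some items that the rule would name are not reported here. Members and lists were chosen with earlier results of these data known, so their counts are descriptions and lists got no test. Among the alternatives, scaling was changed to RLE or to plain library size, the test to DESeq2 1.42.0, and the filter to none or to 1 CPM in 3 libraries with a total of 100. Further alternatives fitted only the groups compared, blocked on the replicate number, exchanged the control for WT or for all 5 libraries labelled wild type, and omitted each library in turn. Promoter windows and motifs were read from RefSeq (GRCh38.p14).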

Additional observations from a re-analysis of the deposited data

How the results depend on the processing

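Across the alternatives run, 5 of 5 genes stayed called in OE over Lipo, 2 of 5 (PARP10 and PARP12) in KO over WT, and 5 of 5 in the difference of the changes. The log2 change in OE ranged from 2.49 to 2.64 for PARP9, 2.28 to 2.74 for PARP10, 2.50 to 2.74 for PARP12, 1.45 to 2.18 for PARP14 and 2.03 to 2.13 for DTX3L. In KO it ranged from -1.28 to -0.82 for PARP10 (adjusted p at most 0.0353) and from -0.58 to -0.47 for PARP12 (at most 0.0444). In Lipo over WT the number of the 5 called was 0 to 1 with each library left out. Only the groups compared gave 1216 genes called in KO over WT (1992 in the fit of all libraries) and 5664 in OE over Lipo (1950), and WT in place of Lipo gave 3953; DESeq2 gave 1003 and no filter 1100 in Lipo over WT (586). With each library left out, the counts ran from 1125 to 2297 in KO over WT, 673 to 2657 in OE over Lipo, 34 to 977 in Lipo over WT and 1373 to 3023 for the difference; the cause was not tested. With the replicate number as a block, 2874 genes were called in KO over WT, 2678 in OE over Lipo, 850 in Lipo over WT and 3402 for the difference, and no call of the 5 changed. Same-numbered KO and WT libraries deviated together with r of 0.267, 0.0451 and 0.141, against -0.193 to 0.0719 for differently numbered ones. Each KO library had its highest r among WT libraries with the one of its own number. The main fit took the libraries as unpaired, and these values do not settle whether the numbers pair them. Among the lists, only the groups compared gave 1 interferon-stimulated gene fallen in KO over WT (5 in the fit of all libraries). In OE over Lipo the same setting gave 2 other PARP genes fallen (0) and 3 linked to removal or breakdown of ADP-ribose (1). It also gave 2 fallen genes of NAD metabolism (0) and 1 of the Deltex family (0). NUDT16 was also not called with no filter, with the block, or with WT or all 5 libraries labelled wild type as control. The block and DESeq2 each gave 4 other PARP genes fallen in KO over WT (2), the block 3 genes of the interferon signal (1), and in Lipo over WT no filter gave 10 interferon-stimulated genes risen and DESeq2 7 (4). With 2 or 3 libraries a group, changes inside the KO intervals of PARP9, DTX3L and PARP14 were not detectable.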
